A study of Mus musculus with 6 samples.

Results

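The comparison described here set α-amyrin against β-amyrin in mouse embryonic fibroblasts (MEFs) at passage 6 (P6), with 1 library for each compound. It covered the 16962 genes that passed a filter on low counts, of 55487 genes in the deposited count table, and used 2 of the 6 libraries of the series directly. The cells were wild-type MEFs, which are primary cells taken from embryos, and the P6 cells are labelled senescent. Both P6 groups had received 20 µM of their compound for 3 days. The other groups used beside them were P6 cells given vehicle, and passage 1 (P1) cells, labelled non-senescent, given vehicle, 20 µM α-amyrin or 20 µM β-amyrin for 3 days. Each of these 6 conditions had 1 library of poly(A) RNA. Differences between single libraries therefore have no replicate check and carry no p-value here, and the labels do not say whether libraries came from separate cultures or embryos. Nor do they say whether the P1 and P6 cells came from the same isolate.

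Both compounds are plant triterpene alcohols of one formula, built on a skeleton with several fused rings. In α-amyrin this is the ursane and in β-amyrin the oleanane skeleton, which differ in where a methyl group sits on ring E. MEFs divide for a limited number of passages in standard culture and then enter senescence, a lasting arrest held by CDK inhibitors such as p16 and p21. Cultures grown from whole embryos can also hold tissue macrophages, phagocytes that depend on the receptor Csf1r and carry sensors such as Cx3cr1 and complement genes such as C1qa. When phagocytes take up much lipid or debris, they are known to switch on genes such as Gpnmb, Fabp5 and Lgals3.

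Total counts were 18798418 in the P6 α-amyrin library, 25440191 in P6 β-amyrin and 23826025 in P6 vehicle, and the α-amyrin library was the shallowest of the 6. Mitochondrially encoded genes took 1.78% of counts with α-amyrin, 1.55% with β-amyrin and 1.81% with vehicle at P6. All 21 fibroblast markers of a fixed list were measured, and their summed CPM (counts divided by the scaled library size) was 23120 with α-amyrin, 27330 with β-amyrin and 27780 with vehicle. By ratio 10 of the 21 were above 0 and 11 below (median 0.00), the sums being set mainly by collagen genes such as Col1a1, and Tcf21 was at 0 with α-amyrin and vehicle. All 22 macrophage markers of a second list were measured as well, and none was at 0 in a P6 library. Of 24 neutrophil, mast cell, lymphoid and erythroid markers, 1 passed the filter.

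Most genes had nearly the same level with the 2 compounds at P6. Each gene was described by the log2 ratio of its CPM with α-amyrin to that with β-amyrin, computed with a prior count of 2, so that a positive ratio means a higher level with α-amyrin. Among the 11889 genes with CPM of at least 5 in at least 1 of the 2 libraries, the median log2 ratio was 0.00 and the quartiles were -0.08 and 0.10. Of these genes, 10894 (91.6%) lay within 1.25-fold, and 95% lay between -0.33 and 0.52. That range reached further above 0 than below it.

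A gene was called by size when its ratio was at least 2-fold and its CPM was at least 5 in at least 1 of the 2 libraries. By this rule 65 genes (0.383% of those tested) were higher with α-amyrin and 15 (0.0884%) were higher with β-amyrin, written below as lower with α-amyrin. Of the 65, 60 were protein coding, their median fold was 2.29 and their level with α-amyrin ran from 5.26 to 578 CPM. Of the 15, 12 were protein coding and their median fold in favour of β-amyrin was 2.97. For all 80 genes the 95% counting interval of the ratio, an exact interval from the 2 read counts, did not reach 0. The 2-fold and CPM limits, applied to the same counts, fix this in advance, so it is no check of the calls. Such intervals cover counting error at most, and none of the variation between cultures. They may be too narrow even for counting error, since PCR reads without molecular identifiers are not independent molecules. On the deposited FPKM scale, with 1 added before taking logs, the split was 98 genes higher and 88 lower. Of those 186 genes 34 were among the 80, 116 had not passed the count filter and 42 were protein coding.

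**Figure D1:**
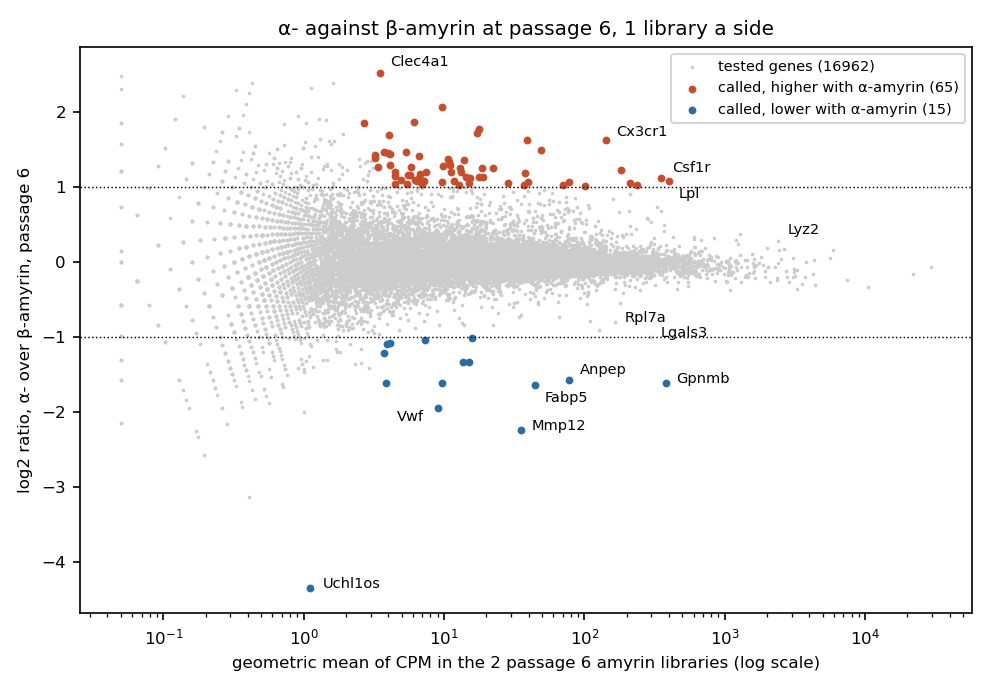
Log2 ratio of α- to β-amyrin CPM at P6 (vertical axis) against the geometric mean of CPM in the 2 libraries (horizontal log axis), one point per tested gene, with genes called by size coloured. Most points lie near 0; 65 called genes lie above and 15 below, with Clec4a1 at 2.52 and Uchl1os at -4.34 at the ends.

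The genes higher with α-amyrin included surface receptors and other genes known from macrophages. The grouping by role in the paragraphs that follow was made after the values were seen, and genes outside the naming rule given under processing (Csf1r, Adgre1, Itgal, Fcrls, Il10ra, Pou2f2, Nlrp3, P2rx7, Spi1, Mrc1, Lyz2, Cd68, Tyrobp and the C1q genes among them) were also picked after their values were seen. Clec4a1, a C-type lectin receptor of myeloid cells, had the largest ratio in favour of α-amyrin: 8.60 CPM with α-amyrin, 1.43 with β-amyrin and 8.55 with vehicle, a log2 ratio of 2.52 (counting interval 2.06 to 3.15). The α-amyrin and vehicle libraries were alike for this gene, and the β-amyrin library was the low one. Cx3cr1, the fractalkine receptor of microglia and other tissue macrophages, was at 250 CPM with α-amyrin, 81.0 with β-amyrin and 199 with vehicle, a log2 ratio of 1.63 (1.55 to 1.70). Again the β-amyrin library stood below the other two.

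Promoters are shown for a few of these genes because many macrophage genes are known targets of PU.1, the factor that Spi1 encodes and that binds purine-rich sites around the core GAGGAA. The core was searched on both strands (TTCCTC on the printed strand) in RefSeq windows (GRCm38.p6) of 300 bases, from 250 before to 50 from each gene's start, matched by gene symbol. Capitals mark the core; Clec4a1 and Itgam had larger levels with α-amyrin, Mmp12 and Gpnmb with β-amyrin.
Clec4a1, chr6:122921598-122921897, plus strand: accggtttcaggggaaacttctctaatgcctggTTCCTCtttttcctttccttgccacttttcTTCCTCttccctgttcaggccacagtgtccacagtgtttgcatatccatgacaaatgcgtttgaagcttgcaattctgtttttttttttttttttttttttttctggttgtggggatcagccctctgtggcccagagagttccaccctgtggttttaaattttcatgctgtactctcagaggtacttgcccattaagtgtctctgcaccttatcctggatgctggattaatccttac
Itgam, chr7:128062390-128062689, plus strand: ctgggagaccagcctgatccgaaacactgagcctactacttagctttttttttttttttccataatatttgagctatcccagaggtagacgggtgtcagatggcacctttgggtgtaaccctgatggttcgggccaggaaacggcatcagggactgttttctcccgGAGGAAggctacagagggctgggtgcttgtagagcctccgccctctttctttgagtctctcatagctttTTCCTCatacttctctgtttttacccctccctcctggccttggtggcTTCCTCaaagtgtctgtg
Mmp12, chr9:7344147-7344446, plus strand: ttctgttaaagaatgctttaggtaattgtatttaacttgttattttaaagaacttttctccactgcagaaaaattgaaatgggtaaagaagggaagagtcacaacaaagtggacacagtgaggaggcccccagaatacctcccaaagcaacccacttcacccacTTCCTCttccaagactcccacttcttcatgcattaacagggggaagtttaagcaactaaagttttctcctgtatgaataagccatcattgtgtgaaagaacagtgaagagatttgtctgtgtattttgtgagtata
Gpnmb, chr6:49036268-49036567, plus strand: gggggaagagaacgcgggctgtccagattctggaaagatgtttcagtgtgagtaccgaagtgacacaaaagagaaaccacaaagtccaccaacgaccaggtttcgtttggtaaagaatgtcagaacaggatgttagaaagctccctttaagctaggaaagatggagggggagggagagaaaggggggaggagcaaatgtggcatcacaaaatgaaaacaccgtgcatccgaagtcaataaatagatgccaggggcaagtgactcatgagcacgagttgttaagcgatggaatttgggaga
The core was found 2 times in the Clec4a1 window, 3 times in that of Itgam, 1 time in the Mmp12 window shown and not in that of Gpnmb. Mmp12 had 2 windows, of which 1 is shown and counted here. Over genes, counting a match in any window of a gene, 32 of 50 called higher with α-amyrin that had a window held it (64.0%). Of those called lower 1 of 7 did (14.3%). The share was 80.0% (12 of 15) for macrophage markers, 30.5% of 8994 tested genes with CPM of at least 5 and 28.3% of all 32851 windows. The Cx3cr1 window held no match, which says only that these letters are not in that window. A match is a description of sequence and was not tested as a binding site.

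Csf1r, the receptor for the growth factor that macrophages need to survive, was at 520 CPM with α-amyrin, 240 with β-amyrin and 573 with vehicle, a log2 ratio of 1.11 (1.07 to 1.16). Adgre1, which encodes the macrophage surface protein F4/80, was at 337, 165 and 312 CPM, a ratio of 1.03 (0.97 to 1.08). Both genes were about the same with α-amyrin and vehicle. Itgam and Itgal encode the α chains of the leukocyte integrins Mac-1 and LFA-1. Itgam was at 57.3 CPM with α-amyrin, 25.1 with β-amyrin and 59.7 with vehicle (log2 ratio 1.19), and Itgal at 22.2, 8.60 and 32.7 CPM (1.36). For Itgal both amyrin libraries were below vehicle, the β-amyrin one more so. Fcrls, an Fc-receptor-like gene of microglia, was at 281, 120 and 249 CPM in the order α-amyrin, β-amyrin, vehicle (1.23). The P2ry12 gene, a nucleotide receptor of microglia, was near the CPM minimum at 5.26, 2.15 and 4.32 (1.26). Its span overlaps that of Med12l on the opposite strand by 46600 bases, so its reads may not be separable from those of Med12l.

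Sensors and regulators of innate immunity made up a second group among the 65. Tlr9, an endosomal DNA sensor, was at 6.26 CPM with α-amyrin, 2.23 with β-amyrin and 6.39 with vehicle (log2 ratio 1.46). Nlrc4 and Nlrp3 each form an inflammasome, and P2rx7 is the ATP-gated channel that can trigger the latter. Their log2 ratios were 1.42 for Nlrc4, 1.07 for Nlrp3 and 1.07 for P2rx7, with levels of 5.36, 9.29 and 14 CPM with α-amyrin against 1.95, 4.38 and 6.65 with β-amyrin. The receptor gene Il10ra, which takes up the anti-inflammatory signal of interleukin 10, was at 34.2 and 14.4 CPM (1.25). Aif1 (Iba1), a cytoskeletal marker of microglia and macrophages, was at 7.38 CPM with α-amyrin, 2.23 with β-amyrin and 6.73 with vehicle (1.69). Il16, the precursor of a chemoattractant, was at 5.26, 1.39 and 5.16 CPM (1.86). In each of these the β-amyrin library was the lowest of the 3 at P6. The oxysterol-guided receptor Gpr183 (1.46), the Langerhans cell lectin Cd207 (1.46), the inhibitory receptor Pilra (1.44) and the transcription factor gene Pou2f2 (1.26) also passed 2-fold.

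Several of the 65 act in lipid, selenium or mitochondrial metabolism. Lpl, the lipase that frees fatty acids from lipoproteins, had the highest level of the set at 578 CPM with α-amyrin, 274 with β-amyrin and 444 with vehicle, a log2 ratio of 1.08 (1.04 to 1.12). Hpgd, which inactivates prostaglandins, was at 69.2, 22.3 and 63.7 CPM (1.63), and Slco2b1, an organic anion transporter, at 11.8, 3.18 and 7.78 CPM (1.86). Selenop, the secreted selenium carrier, was at 306 CPM with α-amyrin, 148 with β-amyrin and 252 with vehicle, a ratio of 1.05 (0.99 to 1.11). Ucp2, an uncoupling protein of the inner mitochondrial membrane, was at 144, 71.5 and 132 CPM (1.01), just past 2-fold. All of these genes were highest with α-amyrin and lowest with β-amyrin.

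**Figure D2:**
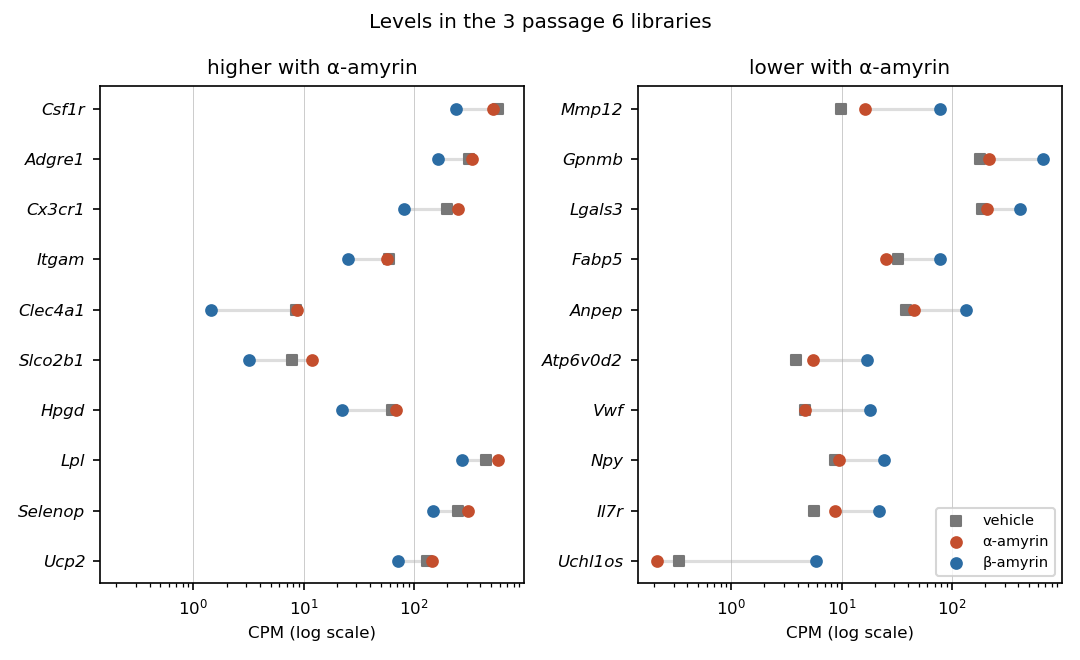
CPM (horizontal log axis) in the P6 vehicle, α-amyrin and β-amyrin libraries for genes called higher and lower with α-amyrin, with Lgals3 just outside the rule, one point per library. In the first group the β-amyrin point lies left of the other two, as for Cx3cr1 at 81.0 against 250 and 199; in the second it lies right of them, as for Gpnmb at 665 against 218 and 180.

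By medians, vehicle lay near α-amyrin for the 80 genes. Over the 65 higher genes the median log2 ratio to vehicle was 0.14 for α-amyrin and -1.04 for β-amyrin, and 4 and 35 of them passed the size rule against vehicle. Over the 15 lower genes the medians were 0.13 for α-amyrin and 1.69 for β-amyrin, and 0 and 12 passed. The vehicle library is shared by both ratios, so they are given side by side only. Across all genes, α-amyrin against vehicle gave 14 higher and 29 lower genes at P6, and β-amyrin against vehicle gave 27 higher and 77 lower.

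Macrophage markers as a list leaned to α-amyrin. At P6, 21 of the 22 had a ratio above 0, where 50.8% of all tested genes did, and the list's median log2 ratio was 0.66 against 0.00 for all genes. Of the 22, 6 were called by size, all higher with α-amyrin: Aif1, Cx3cr1, Itgam, Cd52, Csf1r and Adgre1. Over all tested genes 0.383% were called higher and 0.0884% lower. C1qa, C1qb and C1qc, the chains of the complement starter C1q, were at 288, 421 and 264 CPM with α-amyrin and 154, 254 and 164 with β-amyrin, log2 ratios of 0.91, 0.73 and 0.69. Spi1, the gene of PU.1, was at 70.9 and 45.6 CPM (0.64), and Mrc1, the mannose receptor, at 100.3 and 55.2 CPM (0.86). Other markers differed little: Lyz2 (lysozyme) was at 2630, 2159 and 2704 CPM in the order α-amyrin, β-amyrin, vehicle (0.28), and the signalling adaptors Tyrobp and Fcer1g had ratios of 0.32 and 0.19. Cd68, a lysosomal glycoprotein of phagocytes, was at 137 CPM with α-amyrin, 155 with β-amyrin and 115 with vehicle, a ratio of -0.17 (-0.24 to -0.10).

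The summed level of the 22 markers was 6140 CPM with α-amyrin, 4281 with β-amyrin and 5991 with vehicle at P6. Without Lyz2, which gave the largest part of these sums, it was 3510, 2122 and 3288 CPM. In bulk RNA, fewer macrophages and less RNA per macrophage cannot be told apart. The part of macrophage content in the genes called by size was not tested. Of the 65 higher genes, 58 (89.2%) were at least 2-fold higher in the P6 than in the P1 vehicle library, where 965 genes (8.12%) with CPM of at least 5 were. Their median log2 ratio of P6 to P1 vehicle was 3.13.

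The genes higher with β-amyrin included genes of lipid-laden phagocytes. Gpnmb, a membrane glycoprotein of phagocytes under lysosomal load, was at 665 CPM with β-amyrin, 218 with α-amyrin and 180 with vehicle, a log2 ratio of α- to β-amyrin of -1.61 (-1.66 to -1.56). Mmp12, the macrophage elastase, was at 77.3, 16.3 and 9.86 CPM in the same order, a ratio of -2.24 (-2.42 to -2.07). Fabp5, a fatty acid binding protein, was at 78.1 CPM with β-amyrin, 25 with α-amyrin and 32.3 with vehicle (-1.64). The β-amyrin library stood alone above the others for all these genes. Atp6v0d2, a proton pump subunit of osteoclasts and macrophages, was at 17.0, 5.52 and 3.85 CPM (-1.61), and the related carrier Fabp4 at 6.05, 2.81 and 1.82 CPM (-1.08). Lgals3 (galectin 3) was at 414, 207 and 187 CPM, a log2 ratio of -0.9965 that was just short of 2-fold.

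Beyond the phagocyte genes, Anpep, the aminopeptidase CD13, was at 135 CPM with β-amyrin, 45.4 with α-amyrin and 38.6 with vehicle (log2 ratio -1.57). Vwf, the von Willebrand factor of endothelium, was at 18.1, 4.62 and 4.70 CPM (-1.95), the 1 endothelial marker called by size. Over all tested genes 0.0884% were called lower. Of 15 endothelial markers 8 passed the filter, 5 of them below 0, with a median of -0.42. Ratios of the others ran from -1.29 (Emcn, at 0.64 CPM or less) through Erg (-0.81), Kdr (-0.69), Flt1 (-0.15), Eng (0.03) and Tek (0.45) to 0.80 (Egfl7). Npy, a neuropeptide, was at 24.0, 9.45 and 8.63 CPM (-1.34), and Il7r, the interleukin 7 receptor, at 21.9, 8.65 and 5.63 CPM (-1.33). For Il7r the α-amyrin library too was above vehicle. Tnfrsf26 (-1.21), the adrenergic receptor Adra1a (-1.09) and the γ-secretase subunit Aph1c (-1.04) completed the named protein-coding genes.

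As a list, 22 measured genes of lipid-laden phagocytes did not move one way. Their median log2 ratio was -0.17, with 7 above 0 and 15 below. Of them 1 was called higher with α-amyrin (Lpl) and 4 were called lower (Mmp12, Fabp5, Gpnmb, Atp6v0d2). Over all tested genes 0.383% were called higher and 0.0884% lower. Trem2, the lipid receptor that such cells need, was at 119 CPM with α-amyrin, 98.9 with β-amyrin and 104 with vehicle (0.27), and Apoe at 344, 232 and 334 CPM (0.57). The scavenger receptor Cd36 had a ratio of -0.57 and osteopontin (Spp1) one of -0.20, at 3465 and 3984 CPM. Plin2, which coats lipid droplets, was level at 226 and 225 CPM (0.00). The summed level of the list was 10640 CPM with α-amyrin, 12100 with β-amyrin and 9395 with vehicle. By this sum, set largely by abundant members such as Spp1, the list was higher in the P6 library in which the macrophage markers were lower. At P1 the list went the same way as the macrophage markers: 20 of the 22 were above 0 (median 0.60). Its P1 sums were 2901 CPM with α-amyrin, 2332 with β-amyrin and 3033 with vehicle.

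**Figure D3:**
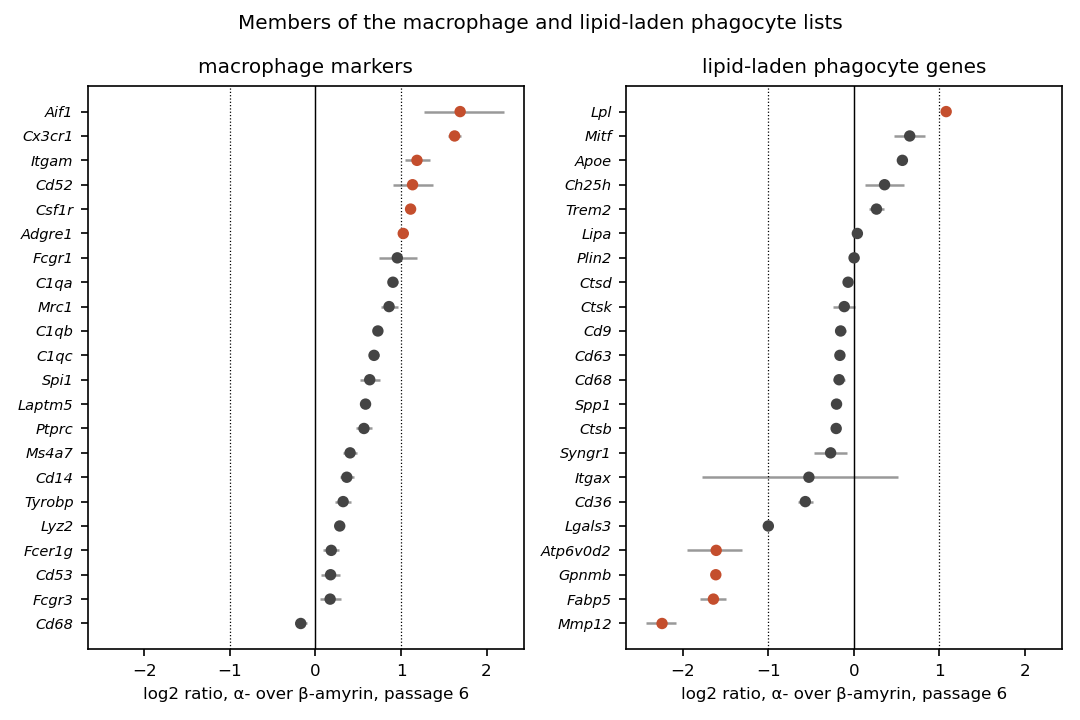
P6 log2 ratio of α- to β-amyrin for each measured gene of the macrophage marker list and the lipid-laden phagocyte list, one point per gene with its 95% counting interval as a bar, dotted lines at 2-fold and called genes in orange. Macrophage markers run from -0.17 (Cd68) to 1.69 (Aif1) and the other list from -2.24 (Mmp12) to 1.08 (Lpl).

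The called gene with the largest ratio was Uchl1os, an antisense RNA on chromosome 5 (mm10, 66626495 to 66676498, minus strand). It had 4 reads with α-amyrin (0.212 CPM), 147 with β-amyrin (5.85 CPM) and 0.338 CPM with vehicle, a log2 ratio of -4.34 (-6.68 to -3.40). At P1 its levels were 0.204 CPM with α-amyrin, 10.1 with β-amyrin and 0.460 with vehicle, so both β-amyrin libraries stood alone. Its span overlaps that of Uchl1, a ubiquitin hydrolase of neurons, which had 67.6 CPM with α-amyrin and 67.0 with β-amyrin at P6 (0.01). The library kit keeps strand, but no source used here says whether counting used it. Of the 80 called genes, 23 overlap another tested gene, 21 of them on the opposite strand, and reads of such pairs may not be separable. Examples are P2ry12, and Gpr183, which overlaps Ubac2 on the opposite strand by 12645 bases.

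Some called genes share sequence with near-identical copies, so their counts are uncertain. Gapdh, whose many processed copies can take its reads, was listed at 31.2 CPM with α-amyrin, 9.43 with β-amyrin and 8.67 with vehicle (log2 ratio 1.72). Rps27rt, a copy of a ribosomal protein gene, was at 82.8, 29.4 and 41.9 CPM (1.49). The pseudogene Hspd1-ps3 (2.06) and the duplicated genes Srp54b (1.28) and Fam177a2 (1.41) were higher with α-amyrin, and the pseudogenes Rps25-ps1 (-1.62) and Ndufa12-ps (-1.02) were lower. In Gapdh, Srp54b, Fam177a2 and Hspd1-ps3 the α-amyrin library was the one that differed from vehicle, unlike in Csf1r or Adgre1.

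The same pair of compounds at P1 gave 124 genes higher with α-amyrin (0.731% of those tested) and 4 lower (0.0236%). The P1 and P6 comparisons share no library. Of the 65 genes higher at P6, 59 were also higher with α-amyrin at P1 and 9 of these passed the size rule there, while 17 of the 65 had CPM of at least 5 in a P1 amyrin library. Their median log2 ratio was 1.84 at P1. Cx3cr1 was at 15.3 CPM with α-amyrin, 0.322 with β-amyrin and 18.0 with vehicle at P1, a ratio of 5.26. Csf1r was at 51.2, 9.93 and 51.9 CPM (2.36) and Adgre1 at 20.9, 1.45 and 19.6 CPM (3.78). At P1, too, β-amyrin was the library that stood apart for these genes.

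Macrophage markers were all higher with α-amyrin at P1 (22 of 22, median log2 ratio 3.57), at summed levels of 369.4, 49.13 and 421.4 CPM for α-amyrin, β-amyrin and vehicle. Members such as Cx3cr1 (8 reads), Itgam (6) and Aif1 (2) were near the floor with β-amyrin at P1. The size of that median therefore depends in part on the prior count. Lpl was at 96.2 CPM with α-amyrin, 33.6 with β-amyrin and 67.2 with vehicle at P1 (1.51). Of the 15 genes lower with α-amyrin at P6, 3 were lower at P1 and 12 higher, but only 5 of the 15 had CPM of at least 5 in a P1 amyrin library. Among the 15, Uchl1os was the 1 gene that passed the size rule in the same direction. Gpnmb was at 120 CPM with α-amyrin, 62.1 with β-amyrin and 73.1 with vehicle at P1, a ratio of 0.95. Mmp12 was at 2.72, 1.01 and 2.57 CPM (1.37), and Anpep at 23.1, 14.8 and 20.3 CPM (0.64). Across the 10669 genes with CPM of at least 5 in every library, the P6 and P1 ratios had a Spearman correlation of 0.227 and a Pearson correlation of 0.262, given as a description over genes, which are not independent.

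**Figure D4:**
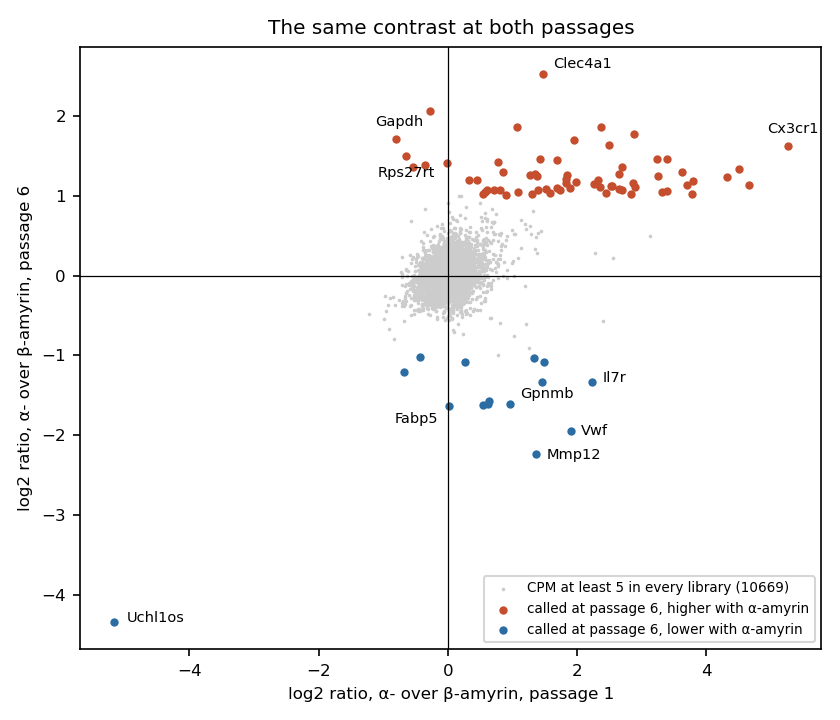
Log2 ratio of α- to β-amyrin at P6 (vertical axis) against the same at P1 (horizontal axis), one point per gene, with the 80 genes called at P6 coloured. Of the 65 higher genes 59 lie right of 0 on the P1 axis; of the 15 lower genes 12 do.

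A model over both passages tested the part of the difference that was common to them. The quasi-likelihood test of edgeR, with treatment and passage as additive terms over all 6 libraries, called 8 genes higher with α-amyrin than β-amyrin (0.0472% of those tested) and 2 lower (0.0118%) at an adjusted p below 0.05, while 1563 genes had an unadjusted p below 0.05. The fit had 2 residual degrees of freedom, and a ratio that differs between passages counts as error in it. Selenop had a log2 fold change of 1.07 ± 0.06 (SE; edgeR adjusted p = 0.00588), Lpl 1.28 ± 0.10 (0.0202) and Ucp2 0.97 ± 0.08 (0.0205). Dab2, an endocytic adaptor, had 0.65 ± 0.05 (0.0205), and Itga6, a laminin-binding integrin chain, had 0.76 ± 0.06 (0.0202). Cd72, an inhibitory lectin (0.68 ± 0.07, edgeR adjusted p = 0.0428), and Unc93b1, which carries Tlr9 to endosomes (0.68 ± 0.07, 0.0437), followed. The last of the 8 was Ccdc152 (1.19 ± 0.12, 0.0428), which lies opposite Selenop and overlaps it by 439 bases.

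The 2 genes below 0 in that fit were Uchl1os (-5.28 ± 0.30, edgeR adjusted p = 0.00588) and Rpl7a (-0.81 ± 0.07, 0.0202). Rpl7a, a ribosomal protein gene whose copies elsewhere may share its reads, was at 124 CPM with α-amyrin, 217 with β-amyrin and 155 with vehicle at P6. Dab2 was at 446, 277 and 343 CPM, Itga6 at 214, 120 and 172 CPM, Cd72 at 222, 140 and 195 CPM and Unc93b1 at 95.6, 60.3 and 90.3 CPM. In these 4 genes vehicle lay between the compounds, nearer to α-amyrin on the log2 scale for Itga6, Cd72 and Unc93b1 and nearer to β-amyrin for Dab2. Csf1r (log2 fold change 1.59 ± 0.26, edgeR adjusted p = 0.16), Cx3cr1 (2.06 ± 0.52, 0.313) and Gpnmb (-0.49 ± 0.54, 0.835) were not called.

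These calls depend on single libraries. Without the P1 α-amyrin library edgeR called 0 genes (853 at an unadjusted p below 0.05), and without the P6 α-amyrin library it called 11, of which 3 were among the 10. It called 176 without P1 β-amyrin and 377 without P6 β-amyrin, all 10 included each time, and 12 and 9 without the P1 and P6 vehicle, with 9 and 8 of the 10 included. DESeq2 called 119 with all 10 included, and limma on log2(FPKM + 1) called 0 (1682 at an unadjusted p below 0.05).

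Genes of cholesterol synthesis differed little between the compounds at P6. The 20 enzymes had log2 ratios from -0.21 to 0.53 and a median log2 ratio of 0.08, with 13 above 0, and none passed 2-fold. That absence is near the share called over all tested genes (0.383% higher, 0.0884% lower). The summed level of the 20 enzymes was 759.5 CPM with α-amyrin, 737.3 with β-amyrin and 1604 with vehicle. Their median ratio to vehicle was -1.17 for each compound. Hmgcs1, which makes the HMG-CoA used by the pathway, was at 91.2, 90.8 and 221 CPM, a ratio of 0.01 (-0.08 to 0.10). Some members had counting intervals beyond 0: the sterol isomerase gene Ebp was at 16.6, 11.8 and 18.1 CPM (0.48, 0.25 to 0.72), Mvd had 0.27 (0.05 to 0.49) and Hsd17b7 -0.21 (-0.35 to -0.08). In the fit over both passages the 95% interval of the α-to-β difference ran from -0.47 to 0.67 for Hmgcs1.

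Sterol sensing genes (15, median 0.05), LXR receptors and their efflux targets (12, median 0.03) and fatty acid synthesis genes (14, median 0.00) had medians near that of all genes. Abca1, the cholesterol exporter, was at 212 CPM with α-amyrin, 169 with β-amyrin and 221 with vehicle (log2 ratio 0.33), while the related Abcg1 was lower with α-amyrin (19.2 and 27.1 CPM, -0.50). The desaturase genes differed from vehicle but not between compounds: Scd2 was at 638, 639 and 1139 CPM (0.00) and Scd1 at 76.2, 74.0 and 161 CPM (0.04).

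Of 18 measured CDK inhibitor and senescence genes, 15 had a ratio above 0 at P6 (median 0.15) and none passed 2-fold. That absence is near the share called over all tested genes (0.383% higher, 0.0884% lower). The best known members of this list were level between the compounds. Cdkn2a, the locus of p16 and p19Arf, was at 116 CPM with α-amyrin, 115 with β-amyrin and 115 with vehicle (log2 ratio 0.01, -0.07 to 0.09). Cdkn1a (p21) was at 572, 567 and 524 CPM (0.01, -0.02 to 0.05) and Cdkn2b (p15) at 80.8, 84.5 and 90.1 CPM (-0.07). Trp53 had a ratio of -0.10 and Lmnb1, the lamin lost in senescence, one of 0.15. The largest ratios of that list were those of Cdkn2c (p18) at 20.2, 14.8 and 17.2 CPM (0.45, 0.24 to 0.66) and of the retinoblastoma gene Rb1 at 60.6, 47.5 and 57.5 CPM (0.35, 0.23 to 0.47). None of 43 measured genes of the senescence-associated secretory phenotype passed the size rule (22 above 0, median 0.03), also near the share called over all tested genes. The cytokine gene Il6 was nearly silent, with 8 reads (0.425 CPM) with α-amyrin against 31 (1.23 CPM) with β-amyrin. Cxcl16, a chemokine, was the highest-ranked named member at 96.9, 59.1 and 81.6 CPM in the order α-amyrin, β-amyrin, vehicle (0.71).

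Cell cycle genes leaned slightly to α-amyrin. Of 71 measured G2/M and mitosis genes 55 had a ratio above 0 (median 0.13), and of 57 G1/S and replication genes 44 did (median 0.08), where 50.8% of all tested genes lay above 0. None passed 2-fold, an absence near the share called over all tested genes (0.383% higher, 0.0884% lower). Mki67, a marker of cycling cells, was at 96.1 CPM with α-amyrin, 77.7 with β-amyrin and 93.5 with vehicle (0.31, 0.21 to 0.40). At P1 its ratio was 0.04 and the medians were 0.02 for the mitosis and 0.09 for the replication genes. Against vehicle at P6, the median log2 ratios of the mitosis genes were 0.18 for α-amyrin and 0.05 for β-amyrin. Those of the replication genes were 0.24 and 0.12. Mki67, at 0.04 and -0.27 against vehicle, was not typical of the mitosis genes.

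Matrix and contractile genes of fibroblasts leaned the other way by small amounts. Of 30 collagens 24 had a ratio below 0 (median -0.16). Col1a1, the main chain of collagen I, was at 9338 CPM with α-amyrin, 11721 with β-amyrin and 12622 with vehicle (-0.33), and Col5a2 at 2880, 3702 and 4090 CPM (-0.36). Both compounds lay below vehicle for these genes, α-amyrin further. Of 36 contractile and TGF-β-responsive genes 31 were below 0 (median -0.15), among them the calponin gene Cnn1 (79.2, 111 and 115 CPM, -0.48) and smooth muscle actin Acta2 (1926, 2327 and 2530 CPM, -0.27). Tgfbi, a matrix protein induced by TGF-β that macrophages also make, went the other way at 115, 63.7 and 122 CPM (0.85). At P1 34 of the 36 were below 0 (median -0.26). In the fit over both passages Cnn1 had -0.50 ± 0.06 (edgeR adjusted p = 0.0788) and Col5a2 -0.38 ± 0.06 (0.152), and neither was called.

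**Figure D5:**
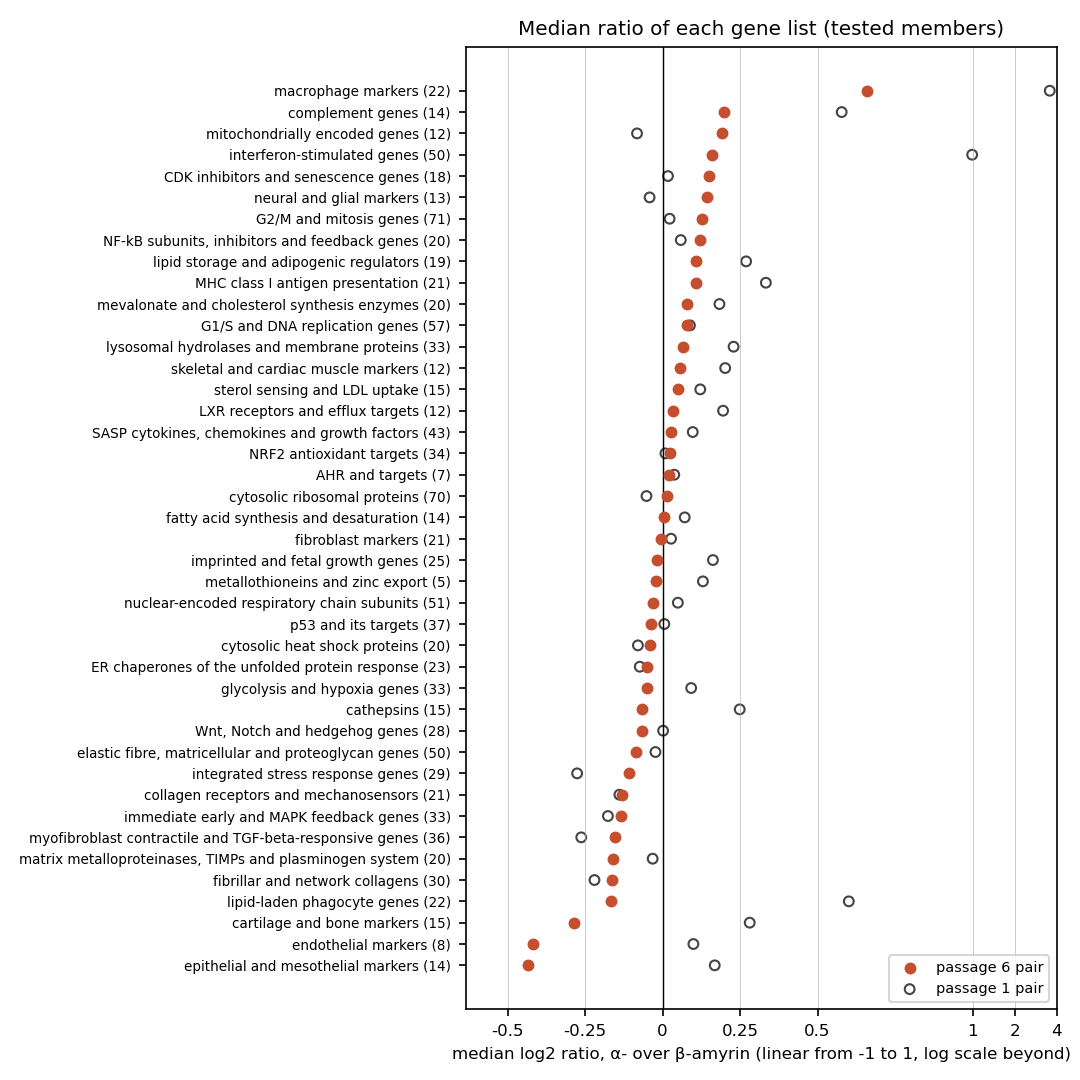
Median log2 ratio of α- to β-amyrin at P6 (filled) and P1 (open) for the gene lists with at least 5 measured members, with the number measured beside each, on an axis that is linear to 1 and logarithmic beyond. At P6 macrophage markers stand highest at 0.66, and other medians lie between -0.20 and 0.20 apart from the cartilage, endothelial and epithelial lists below.

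Stress lists gave small differences. Of 29 genes of the integrated stress response 26 were below 0 at P6 (median -0.11) and 26 at P1 (median -0.28). Slc7a11, the cystine transporter, was at 5.20 CPM with α-amyrin, 8.36 with β-amyrin and 6.01 with vehicle (-0.68), and Ppp1r15a, the phosphatase subunit GADD34, at 30.3, 39.0 and 29.7 CPM (-0.36). Immediate early genes had a median of -0.13 (23 of 33 below 0), yet Fos was higher with α-amyrin (0.48). NRF2 targets (0.02), ER chaperones (-0.05), heat shock proteins (-0.04) and p53 targets (-0.04) lay near 0. Within the p53 list Sesn1, a stress-induced regulator of growth signalling, was at 53.4, 26.7 and 48.3 CPM, a log2 ratio of 0.996, just below the 2-fold limit.

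Interferon-stimulated genes leaned to α-amyrin at both passages. Of 50 measured genes 33 were above 0 at P6 (median 0.16) and 50 of 50 at P1 (median 1.00); that difference between passages was not tested. Ifit3, an antiviral effector, was at 8.34 CPM with α-amyrin, 6.33 with β-amyrin and 5.29 with vehicle at P6 (0.39), and at 7.82, 1.73 and 2.61 CPM at P1 (2.13). Isg15 was level at P6 (-0.04). Ifit3 was not typical of the list, whose median log2 ratios to vehicle at P6 were -0.09 for α-amyrin and -0.22 for β-amyrin. In the order α-amyrin, β-amyrin, vehicle, Sp100 was at 6.42, 3.34 and 6.73 CPM (0.93) and Trim30a at 15.5, 8.48 and 16.2 CPM (0.86). Rtp4 was at 7.54, 4.89 and 10.3 CPM (0.61) and Irgm2 at 9.87, 6.61 and 11.8 CPM (0.57), while 17 of the 50 members had ratios below 0. No member was called by size at P6, near the share over all tested genes (0.383% higher, 0.0884% lower). The NF-κB list had 16 of 20 above 0 (median 0.12), and the complement list 11 of 14 (median 0.20).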

How the data were processed

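Poly(A) RNA of 6 MEF libraries was made into libraries with a strand-keeping kit, per the labels' protocols. HISAT2 2.1.0 (with mm10) and featureCounts 1.6.3 are named in the submitters' processing notes without settings, as are Trimmomatic 0.38, FastQC 0.11.7 and SAMtools 1.9. The authors deposited raw read counts per gene, which all tests used. The authors also deposited FPKM values, whose making no source used here describes, and these entered as alternatives only.

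Counts were filtered with filterByExpr (passage as the group) and scaled by TMM in edgeR 4.0.16 under R 4.3.3. CPM is the count divided by the scaled library size, and log2 ratios used a prior count of 2. Pairs of single libraries were described by size, at 2-fold and CPM of at least 5, with 95% exact conditional binomial intervals of the 2 counts. The additive fit over all 6 libraries used the edgeR quasi-likelihood test with Benjamini-Hochberg adjustment at 0.05. It had 2 residual and 4.83 prior degrees of freedom and a common biological coefficient of variation of 7.72%, and its p-values measure only the spread among these libraries. DESeq2 1.42.0 and limma 3.58.1 served as alternatives. The pipeline was tested on simulated data.

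Gene lists, tests and the naming rule were chosen with earlier results of these data known. Named genes were the 15 highest and 15 lowest called ratios with a plain symbol, up to 4 members of each of 43 lists with the largest ratios at CPM of at least 5, 13 fixed genes of senescence, sterol and imprinting biology, and all genes called by the fit. Genes outside the rule were picked after their values were seen. Results for a few genes are not reported here.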

Additional observations from a re-analysis of the deposited data

Results flagged for a closer look

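4 genes called by size at P6 differed by at least 1.5-fold in the opposite direction at P1, with CPM of at least 5. With 1 library for each compound at each passage, the difference between passages was not tested. Gpnmb had a log2 ratio of α- to β-amyrin of -1.61 at P6 and 0.95 at P1, and Anpep one of -1.57 at P6 and 0.64 at P1. For both, the β-amyrin library was the highest of the 3 at P6 and the lowest of the 3 at P1. Gapdh had 1.72 at P6 and -0.81 at P1, and Rps27rt 1.49 at P6 and -0.64 at P1. These genes have near-identical copies, and the part of shared reads in their values was not tested. Gapdh was at 46.4 CPM with vehicle at P1 and 8.67 at P6, so the vehicle libraries also lay far apart.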

How the results depend on the processing

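The number of genes called at P6 was 80, and under other settings 217 at a CPM minimum of 1, 52 at a minimum of 10, 285 at 1.5-fold and 186 by FPKM. At P1 the count of 128 became 393, 66, 326 and 199 under the same settings. Other scalings, prior counts, no count filter and leaving out genes that overlap another tested gene (this last added after the data were seen) kept the P6 count between 57 and 87. The 10 calls of the additive fit became 119 with DESeq2, 484 without a filter and 0 with limma on FPKM. Leaving out 1 library at a time gave 0 to 377 (a treatment left with 1 library is assumed to vary like the others), and the cause was not tested. No paired analysis was possible because the labels give no replicate numbers that tie libraries together, and each condition had 1 library.

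The number of list medians below 0 was 21, and 19 to 22 under the alternatives. The epithelial and mesothelial median of -0.44 became 0.28 when only members with CPM of at least 5 (Krt19 among them) were kept. On log2(FPKM + 1), which understates ratios of low genes, 64 of the 65 higher and 15 of the 15 lower genes kept their direction. Depth limits the genes near 5 CPM most: Nlrc4, with 101 and 49 reads, had a counting interval of 0.95 to 1.98. Counting intervals do not cover variation between cultures.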

Other observations

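Transcripts made in the mitochondrion leaned to α-amyrin at P6: 11 of 12 mitochondrially encoded genes had a ratio above 0 (median 0.19), where 4 of 12 did at P1 (median -0.08). At P1, 8 of the 12 were below 0, yet mt-Atp6 (1.21) and mt-Co3 (1.09) passed the size rule with α-amyrin higher. Their P6 ratios were 0.59 and 0.22. The respiratory chain gene mt-Co1 was at 6224 CPM with α-amyrin, 5550 with β-amyrin and 6526 with vehicle at P6 (log2 ratio 0.17, 0.15 to 0.18), so β-amyrin was the lowest. The share of counts in these genes moves with them (1.78% and 1.55%), and the part of RNA quality was not tested. Nuclear-encoded respiratory chain subunits had a median of -0.03 over 51 genes and cytosolic ribosomal proteins 0.01 over 70.

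The metal-binding genes Mt1 and Mt2 were higher with α-amyrin at P6, at 74.4 and 38.2 CPM against 51.8 and 23.5 with β-amyrin and 80.3 and 40.9 with vehicle (log2 ratios 0.52 and 0.70). At P1 their ratios were 1.02 and 1.14. Of the 5 measured genes of metallothioneins and zinc export, 2 were above 0 and 3 below at P6 (median -0.02). At P1 all 5 were above 0 (median 0.13). H19, an imprinted RNA of fetal growth, was at 938 CPM with α-amyrin, 754 with β-amyrin and 617 with vehicle at P6 (0.32, 0.29 to 0.35), with both compounds above vehicle. Its P1 ratio was 0.33, and in the additive fit it had a log2 fold change of 0.32 ± 0.05 (edgeR adjusted p = 0.15). Igf2, which lies beside H19 in the same imprinted region, was at 12.5, 11.3 and 9.05 CPM (0.14, -0.11 to 0.40). Dlk1, another imprinted gene, was at 72.5, 52.6 and 49.8 CPM (0.46). The list of imprinted and fetal growth genes as a whole did not lean to α-amyrin at P6. Of its 25 measured members 10 were above 0 and 15 below (median -0.02), with Nnat at -0.49. Among cathepsins, Ctsc, which activates granule proteases of immune cells, was at 138 CPM with α-amyrin, 81.6 with β-amyrin and 146 with vehicle (0.76), whereas Ctss went the other way at 177, 218 and 170 CPM (-0.30).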
